A study of Mus musculus with 11 samples.

Results

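The muscle atrophy programme was followed in whole mouse muscle through 10 genes: the ubiquitin ligase genes Fbxo32, Trim63, Fbxo30, Fbxo40, Trim32 and Traf6, the forkhead transcription factor genes Foxo1, Foxo3 and Foxo4, and Klf15. They were chosen by symbol, and all 10 were found among the 24421 symbols counted. The study asked what activation of beta-catenin in mesenchymal progenitors, also called fibro/adipogenic progenitors, does to muscle mass. Tamoxifen was given to mice with an inducible Cre recombinase driven from Hic1, a gene of mesenchymal progenitors rather than muscle fibres, and with a tdTomato reporter. WT/flox mice (written WTlFlox in the labels) had 1 beta-catenin allele with loxP sites around exon 3, whose removal leaves a protein that is not degraded, and WT mice had none; the labels do not spell out the other alleles of WT, but the WT sorts too were tomato-positive. Tibialis anterior lysate came from 2 WT mice (73A5, 73A7) and 3 WT/flox mice (71B3, 71B4, 71B5), all at day 56, with 16892158 to 19449227 counts per library. Tomato-positive progenitors sorted from hindlimb muscle came from 3 WT (72B8, 74A2, 73C3) and 3 WT/flox mice (74A1, 72B7, 74A3) at day 14, except 74A3 at day 56, with 13119843 to 16805238 counts. Sorted cells were CD45-, CD31-, Sca1+, tdTomato+ and alpha7-. Each library has an identifier of its own, taken here as a mouse, and p-values measure the spread between these libraries; the labels name no ages. All WT lysates have 73A numbers and all WT/flox lysates 71B numbers, so that this numbering cannot be told apart from genotype.

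Muscle fibres lose protein largely through the ubiquitin-proteasome system and autophagy. Fbxo32 (atrogin-1) and Trim63 (MuRF1) are the muscle ligases classically induced by denervation, fasting and glucocorticoids, and FoxO factors, which insulin and IGF-1 signalling through Akt keeps out of the nucleus, bind and activate both genes. Klf15 is a glucocorticoid-induced factor that acts on the same genes and on amino acid breakdown. FoxO activity is set mainly by phosphorylation, which RNA counts do not measure.

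The start-site regions of 2 members are shown, Foxo1 because it was the member whose RNA changed and Trim63 because it is the ligase gene with a full FoxO motif among the windows matched. RefSeq (GRCm38.p6) gave 9 such windows for 8 of the 10 members, each with 250 bases before and 50 after a start site; none was matched for Fbxo32 and Foxo4. The Trim63 window lies at chr4:134314870-134315169 and the Foxo1 window at chr3:52268087-52268386, both on the plus strand. In the Trim63 window the capitals mark TGTTCT, the reverse of the glucocorticoid receptor hexamer AGAACA, starting at base 51, directly followed at base 57 by TGTTTAC, the reverse of the FoxO motif GTAAACA. In the Foxo1 window they mark a FoxO core AAACA at base 55.

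Trim63: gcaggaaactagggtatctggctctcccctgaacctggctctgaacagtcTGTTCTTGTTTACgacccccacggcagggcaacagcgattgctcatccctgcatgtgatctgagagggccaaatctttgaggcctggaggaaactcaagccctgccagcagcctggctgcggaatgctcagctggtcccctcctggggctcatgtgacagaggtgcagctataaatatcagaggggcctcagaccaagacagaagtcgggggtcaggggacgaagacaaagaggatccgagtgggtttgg

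Foxo1: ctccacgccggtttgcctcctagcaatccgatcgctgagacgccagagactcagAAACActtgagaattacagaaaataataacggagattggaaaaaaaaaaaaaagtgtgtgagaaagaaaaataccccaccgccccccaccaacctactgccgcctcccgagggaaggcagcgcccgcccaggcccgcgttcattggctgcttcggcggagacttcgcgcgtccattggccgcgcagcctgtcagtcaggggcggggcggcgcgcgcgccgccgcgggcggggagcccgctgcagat

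Both strands were searched. GTAAACA stood in 1 of the 9 member windows and in 3.65% of all 32851 windows of this length, and AGAACA in 2 of 9 and 18.97% of all. The shorter core AAACA, which GTAAACA contains, stood in 5 of 9 and 50.5% of all. ATCAAAG, a TCF/LEF motif, stood in 0 of 9 and 3.73% of all. These matches describe the letters in the windows only.

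Foxo1 RNA was higher in WT/flox muscle, and it was the only member of the 10 that passed the test. Its level was 27.7 CPM (the count relative to library size, TMM-scaled) in 73A5 and 26.0 in 73A7, against 52.6 in 71B3, 58.2 in 71B4 and 53.5 in 71B5. The WT libraries lay close together, and every WT/flox library lay far above both. The means were 26.9 ± 1.20 CPM (SD, n = 2) and 54.7 ± 2.99 CPM (SD, n = 3), 2.04-fold higher in WT/flox (log2 fold change 1.03, SE 0.14, edgeR adjusted p = 0.0213). Foxo1 (ENSMUSG00000044167, GRCm38 chromosome 3, 52268336 to 52353221, plus strand) encodes a FoxO factor that, like Foxo3, can drive Fbxo32 and Trim63 in wasting muscle. Annotated transcripts overlap it, Gm20402 on the opposite strand and Gm38034 on the same strand; neither has a row of its own in the count table.

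**Figure D1:**
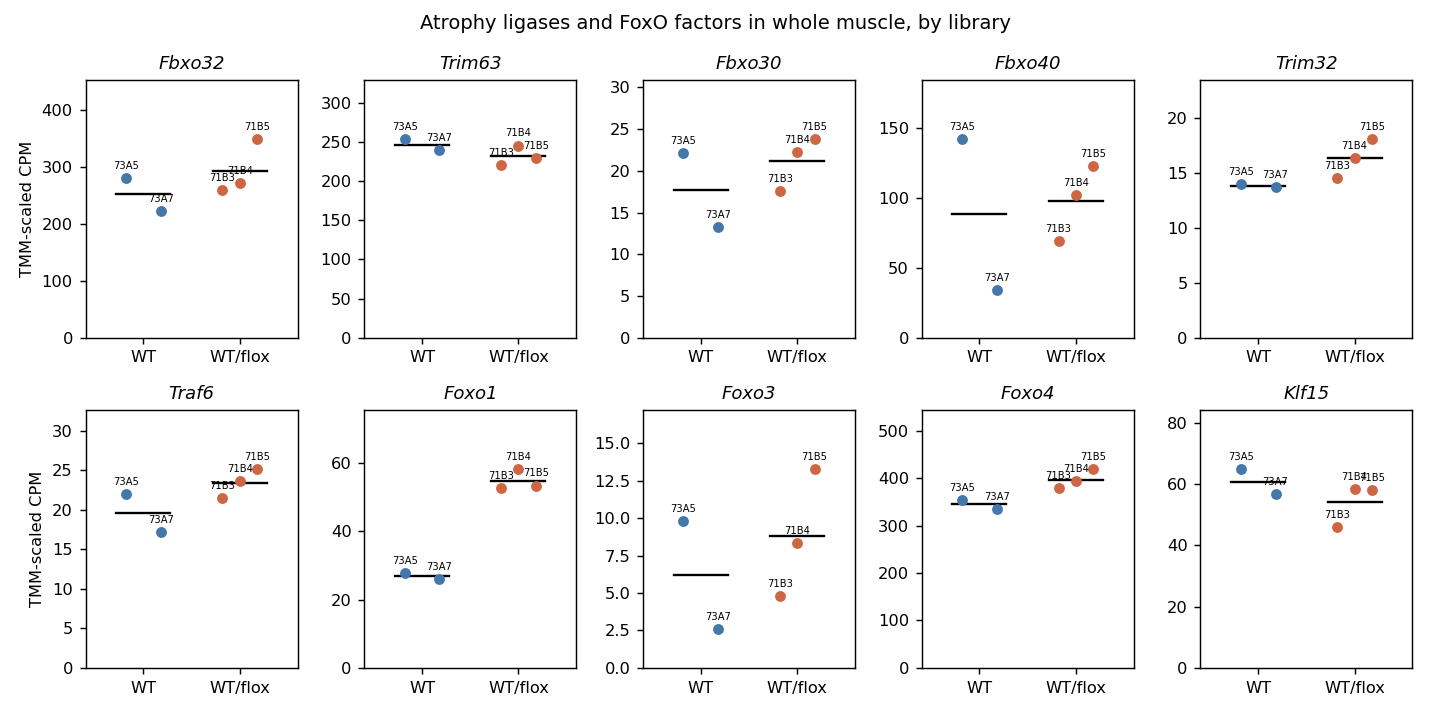
TMM-scaled CPM of each member in the 5 muscle libraries, points labelled by animal, with the group mean as a bar and the axis starting at 0. The 3 WT/flox libraries of Foxo1 sit between 52.6 and 58.2 CPM, above 26.0 and 27.7 CPM in WT, while Fbxo40 and Foxo3 differ widely between the 2 WT libraries.

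Over all 12654 genes tested in muscle edgeR called 92, or 0.727%, of which 0.514% were higher and 0.213% lower. Among the members 1 of 10 was higher and 0 lower. The direction held in all 12 other fits of Foxo1, with log2 fold changes of 0.98 to 1.15. With 1 WT library left, the value was 1.07 without 73A5 and 0.98 without 73A7. Among the other fits, the call held in each that keeps every library and without 71B3 (1.05, edgeR adjusted p = 0.0491). It was lost without 71B4 (0.99, edgeR adjusted p = 0.162) and without 71B5 (1.04, edgeR adjusted p = 0.107). Without 71B5 the same test called 0 genes of 12489, with 1023 at an unadjusted p under 0.05.

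The other FoxO genes did not pass. Foxo4 (chromosome X, 101254528 to 101260873) was read at 354 and 335 CPM in WT and at 378, 395 and 418 CPM in WT/flox. All 3 WT/flox libraries lay above both WT libraries, by a small margin (log2 fold change 0.20, SE 0.14, edgeR adjusted p = 0.730). Foxo3 (chromosome 10, 42181841 to 42276755) was read at 9.82 CPM in 73A5 but 2.63 in 73A7, and at 4.80, 8.32 and 13.3 CPM in WT/flox. Its groups overlapped, the highest WT library was 3.74 times the lowest, and the log2 fold change of 0.50 had an SE of 0.57 (edgeR adjusted p = 0.872).

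Per kilobase of exon, Foxo4 was by far the most abundant FoxO transcript of the muscle lysate. It made up 96.2 ± 0.617% (SD, n = 2) of the summed Foxo1, Foxo3 and Foxo4 level in WT and 93.8 ± 0.318% (SD, n = 3) in WT/flox. The share of Foxo1 was 3.01% in both WT libraries and 4.82 to 5.54% in WT/flox. In sorted progenitors Foxo1 held 41.6 ± 4.75% in WT and 51.5 ± 4.78% in WT/flox (SD, n = 3 each). These shares were not tested.

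Of the ligases best known for wasting, neither Fbxo32 nor Trim63 passed the test, and they differed in sign. Fbxo32 (ENSMUSG00000022358, chromosome 15, 58175879 to 58214932, minus strand), the F-box subunit that selects substrates for an SCF ligase, was read at 279.9 CPM in 73A5 and 223 in 73A7. The WT/flox values were 258 in 71B3, 272 in 71B4 and 348 in 71B5. The groups overlapped, with 1 of the 3 WT/flox libraries above both WT libraries. The log2 fold change was 0.22 (SE 0.19, edgeR adjusted p = 0.808), and 2 SE to either side span -0.15 to 0.59. 

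Trim63 (ENSMUSG00000028834, chromosome 4, 134315120 to 134329629, plus strand), a RING ligase of the sarcomere, varied least of the ligases. It was read at 253 and 239.9 CPM in WT and at 221, 245 and 229 CPM in WT/flox. All 5 values lay within a narrow band and the groups overlapped. The log2 fold change was -0.09 (SE 0.14, edgeR adjusted p = 0.912), with 2 SE spanning -0.36 to 0.18, and it was 0.03 with total counts in place of TMM scaling. The ratio of Fbxo32 to Trim63 per kilobase was 0.450 and 0.379 in the WT libraries and 0.477, 0.451 and 0.618 in the WT/flox libraries (73A5, 73A7, then 71B3, 71B4, 71B5). The value of 71B4 was level with that of 73A5, and only 71B5 stood well above.

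**Figure D2:**
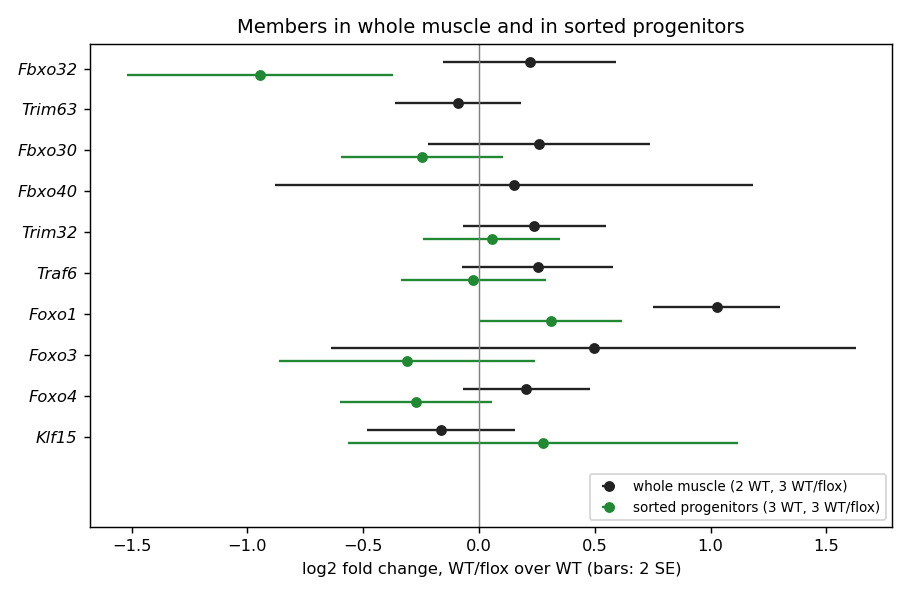
Log2 fold change of each member in whole muscle (black, 2 WT and 3 WT/flox) and in sorted progenitors (green, 3 and 3), with bars of 2 SE. Foxo1 in muscle, at 1.03, is the member whose bar lies farthest above 0; Trim63 and Fbxo40 have no progenitor value because they were not tested there.

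The remaining ligases also did not pass with all libraries in the fit. Fbxo40, a muscle F-box protein that targets Irs1, was read at 142 CPM in 73A5 and 34.3 in 73A7, and at 69.0, 101.7 and 123 CPM in WT/flox. The WT libraries spanned the whole WT/flox range (log2 fold change 0.15, SE 0.52, edgeR adjusted p = 0.966). Its value rested on which WT library was used: without 73A5 it was 1.51, and without 73A7 it was -0.54, each with 1 WT library left. Fbxo30 (MUSA1), a ligase held down by BMP signalling, showed a smaller form of the same spread, at 22.1 and 13.3 CPM in WT against 17.5, 22.2 and 23.8 in WT/flox (0.26, SE 0.24, edgeR adjusted p = 0.829). Without 73A7 the log2 fold changes of Fbxo30 (-0.07) and Foxo3 (-0.16) turned negative, and without 73A5 they were 0.68 and 1.75.

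Trim32, a ligase that acts on desmin and thin filaments, was read at 14.0 and 13.7 CPM in WT. The WT/flox values of 14.6, 16.4 and 18.1 CPM were all higher, by little (0.24, SE 0.15, edgeR adjusted p = 0.713). Trim32 lies inside Astn2, which runs on the opposite strand and had 12 to 35 counts per muscle library. In the progenitor libraries Astn2 had 430 to 1050 counts, beside 422 to 613 for Trim32. The part of Astn2 in the Trim32 counts was not tested. Traf6, an adaptor and ligase that carries cytokine signals to NF-kappaB, was read at 22.0 and 17.2 CPM in WT and 21.4, 23.7 and 25.1 CPM in WT/flox, with overlap (0.25, SE 0.16, edgeR adjusted p = 0.709). Klf15 was read at 64.7 and 56.6 CPM in WT and 46.1, 58.2 and 58.0 CPM in WT/flox (-0.16, SE 0.16, edgeR adjusted p = 0.837). The lowest Klf15 value was that of 71B3, and the groups overlapped.

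Across the 10 members the log2 fold change was above 0 for 8 and below 0 for Trim63 and Klf15. The median was 0.23, beside 0.00 over all genes tested. The 2 genotypes did not overlap for Foxo1, Foxo4 and Trim32, all higher in WT/flox, or 3 of 10 members, while 12.4% of all genes were higher without overlap and 12.9% lower. At an unadjusted p under 0.05 stood 1 member, Foxo1, beside 9.69% of all genes. Total count scaling moved the median of all genes to 0.13, and under it the log2 fold change of Foxo1 was 1.15.

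Several members ordered the muscle libraries much as the level of long transcripts did. Among the genes of longest exon length (6938.5 bases and more, 3052 genes), the median deviation from a gene's mean log2 CPM was -0.13 in 73A7, -0.11 in 71B3, 0.0046 in 71B4, 0.09 in 73A5 and 0.16 in 71B5. Among as many of the shortest genes these libraries stood in the reverse order, from 0.16 in 73A7 to -0.15 in 71B5. Fbxo40 and Foxo3 were likewise lowest in 73A7, next in 71B3 and then in 71B4, with 73A5 and 71B5 highest. Their higher WT library was 4.13 and 3.74 times the lower, a wider gap than in the length measure. Fbxo40, with 5517 bases of exon, is not among those longest genes. Fbxo32 took the same order as the length measure over all 5 libraries, within a narrower range (223 to 348 CPM), and Fbxo30 and Traf6 were also lowest in 73A7 and next lowest in 71B3. Foxo1, the longest member at 8665 bases of exon, did not take that order: 73A5 and 71B5 were the highest libraries in the length measure and differed in Foxo1 (27.7 and 53.5 CPM). With the length trend of each library removed, an alternative chosen after seeing the data, Foxo1 had a log2 fold change of 0.996 (edgeR adjusted p = 0.0123). In that fit Fbxo40 had 0.16 (SE 0.51, beside 0.52 in the main fit) and Foxo3 had 0.48 (SE 0.53, beside 0.57). Neither passed. The part of transcript length in the values of these members, Foxo1 included, was not tested further.

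**Figure D3:**
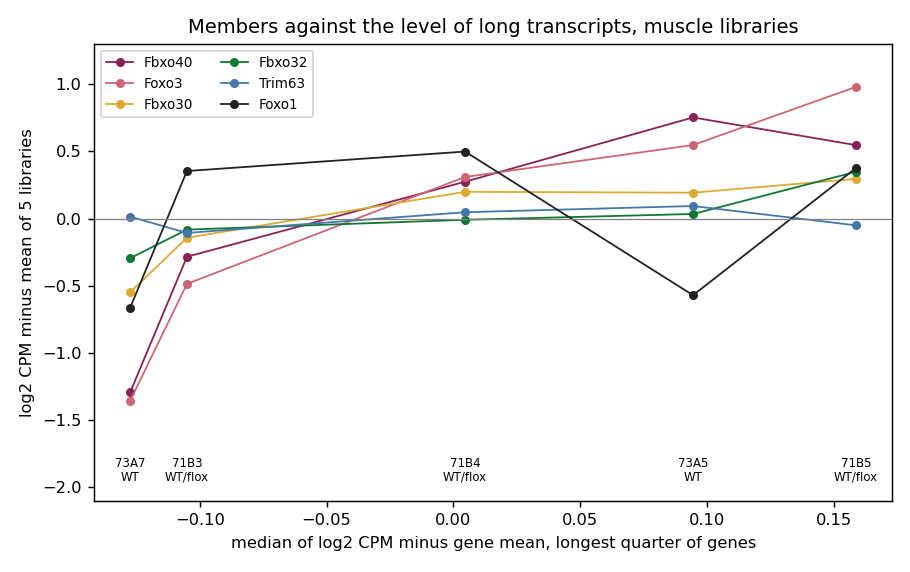
Log2 CPM of 6 members minus their mean over the 5 muscle libraries, against the median deviation of the longest genes (6938.5 bases of exon and more) in the same library. Fbxo40 and Foxo3 are lowest in 73A7 at -0.13 and high in 73A5 and 71B5, whereas Foxo1 is low in both WT libraries, 73A7 at -0.13 and 73A5 at 0.09.

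Per kilobase of exon the members covered a wide range in muscle. In WT the means ran from Foxo4 (98.9 CPM per kilobase) and Trim63 (86.8) through Fbxo32 (36.0), Klf15 (21.7) and Fbxo40 (15.95) to Trim32 (4.29), Fbxo30 (3.41), Foxo1 (3.10), Traf6 (2.49) and Foxo3 (0.822). The libraries of Klf15 and Fbxo40 overlapped, as did those of Fbxo30 with Foxo1, Traf6 and Trim32. In WT/flox Foxo1 (6.32) lay above Trim32 (5.07) and Fbxo30 (4.08), and its lowest library, 6.07, lay above the highest of Trim32, 5.60.

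**Figure D4:**
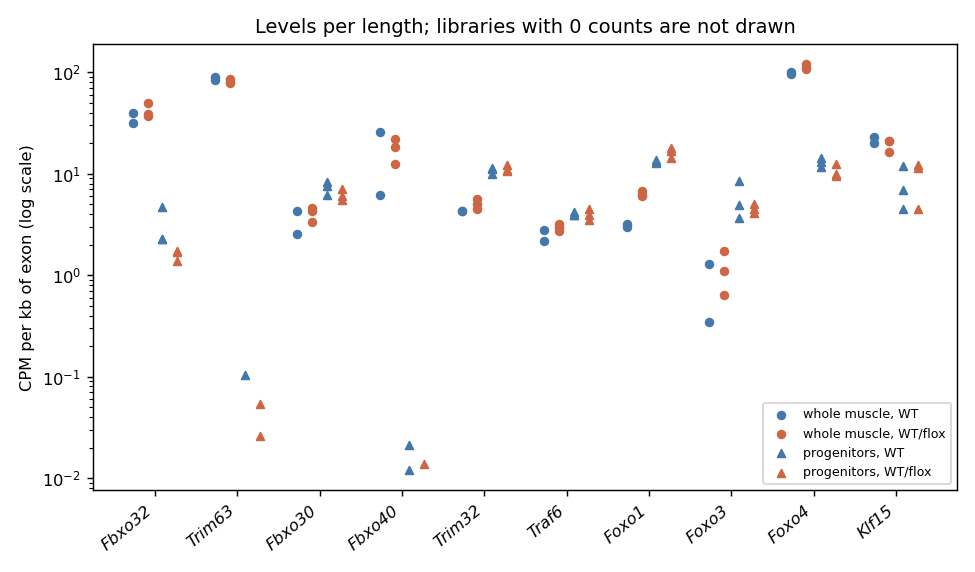
CPM per kilobase of exon of each member, on a log scale, in muscle (circles) and sorted progenitors (triangles), by genotype. Foxo4, Trim63 and Fbxo32 lead in muscle, Foxo1 is higher in progenitors than in muscle, and Trim63 and Fbxo40 are near 0 in progenitors; each material was scaled on its own.

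In a whole lysate, a change in the share of a cell type and a change of RNA within cells cannot be told apart. The lysates were muscle by their markers: 13 of 13 fibre markers were detected in every library and took 18.1 to 19.8% of counts in WT and 14.5 to 18.1% in WT/flox, the low value being 71B5. Myh4, the fast IIb myosin, and Atp2a1, the fast calcium pump, led that list. Of the 13, 0 were called, 2 were lower at an unadjusted p under 0.05, 5 were lower without overlap and 2 lay above 0. Their median log2 fold change was -0.35, and the part of this in the ligases' values was not tested. Over all genes tested, 9.69% stood at an unadjusted p under 0.05 in either direction. Without overlap, 12.4% of all genes were higher and 12.9% lower. Progenitor markers, led by Dcn and Col3a1, took 0.0739 to 0.111% of counts in WT and 0.152 to 0.172% in WT/flox; the log2 fold change was above 0 for 10 of 10, 0 were called by edgeR, 4 stood at an unadjusted p under 0.05, and for 5 of 10 the groups did not overlap. In sorted progenitors, where these markers took 4.83 to 5.29% (WT) and 6.47 to 7.32% (WT/flox), Foxo1 stood at 114 ± 3.79 and 141 ± 16.2 CPM. Scaled by the marker share, progenitor RNA would bring 1.68 to 2.51 CPM of Foxo1 to a WT lysate and 3.12 to 3.55 CPM to a WT/flox lysate, 5.37 to 9.67% of the level measured. The scaling takes the markers as equally abundant per progenitor RNA in the sort and in the tissue.

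Markers of other cells did not pass in muscle, with 0 called in each list. The share of all genes at an unadjusted p under 0.05, in either direction, was 9.69%. The endothelial list, led by Cdh5 and Pecam1, had 2 of 6 lower at an unadjusted p under 0.05 and took 0.0299 to 0.0330% of WT and 0.0242 to 0.0304% of WT/flox counts. The mural list (led by Acta2 and Rgs5) also had 2 of 6 lower at that threshold and the glial list 2 of 5 tested. The adipocyte list had 1 of 5 lower and the immune list 1 of 6 tested. Higher at that threshold were 1 of 5 in the tendon list and 1 of 1 tested in the erythroid list. The stem cell list had 0 of 4 tested in either direction. Above 0 lay 0 of 6 mural and 0 of 6 endothelial genes. The mural list took 0.0267 to 0.0365% and 0.0247 to 0.0339%, the adipocyte list (Fabp4, Adipoq) 0.0373 to 0.0409% and 0.0288 to 0.0309%, and the glial list (with Pmp22) 0.0143 to 0.0172% and 0.0146 to 0.0162%. The tendon list (Fmod, Comp) took 0.0148 to 0.0225% and 0.0186 to 0.0241%, the immune list (Lyz2, Csf1r) 0.00220 to 0.00690% and 0.00434 to 0.00571%, and the stem cell list (Chodl, Vcam1) 0.00175 to 0.00189% and 0.00177 to 0.00223%. Of the erythroid list, which holds Alas2, 4 or 5 of 6 markers were at 0 in each library, and 0 or 1 of 9 immune markers; no marker of the other lists was at 0. The part of these shares in the members' values was not tested.

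Genes that act around the members gave few calls. For comparison with each list below, 0.727% of all genes tested in muscle were called. At an unadjusted p under 0.05 stood 9.69% of them, in either direction. Among 26 other ubiquitin ligases and adaptors, a list drawn up with earlier results known, 0 were higher and 1 was lower. Rnf115, a RING ligase, had 124 ± 4.38 CPM in WT and fell to 62.6 ± 1.24 in WT/flox, a log2 fold change of -0.98 (SE 0.13, edgeR adjusted p = 0.0177). That call was lost without 71B3, 71B4 or 71B5 and with total count scaling, the log2 fold change staying between -0.86 and -0.99 in those fits. Klhl40 (-0.85) and Klhl41 (-0.46), Cul3 adaptors that steady thin filaments, and Cblb (0.31), a ligase of insulin receptor substrates, did not pass. The list median was 0.01, and DESeq2 called 2 of its genes, both lower (Rnf115 and Klhl40). Klhl40 was -1.16 without 73A5 and -0.46 without 73A7, each with 1 WT library left. Of 26 genes for ubiquitin, its conjugating enzymes and deubiquitinases 0 were called (3 at an unadjusted p under 0.05, 1 by DESeq2; median -0.05). The deubiquitinases Usp28 (-0.90, edgeR adjusted p = 0.0545) and Usp2 (-0.45) did not pass. Usp28 passed with DESeq2 (adjusted p = 0.000102), without a filter on low counts and with the length trend removed. With 1 WT library left, Usp28 was -0.82 without 73A5 and -0.97 without 73A7.

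Known FoxO targets did not pass with all libraries in the edgeR fit. Of 24 autophagy and lysosome genes tested, edgeR and DESeq2 each called 0, 1 stood at an unadjusted p under 0.05, and the median was 0.07. Gabarapl1, an LC3 relative, had -0.31, the lipid kinase subunit Pik3c3 had 0.30 and the mitophagy kinase Pink1 had 0.33. Of 26 other FoxO targets 0 were called (1 higher and 5 lower at an unadjusted p under 0.05, 3 lower by DESeq2). Their median was -0.21, with 7 of 26 above 0. Pdk4, the kinase that shuts off pyruvate dehydrogenase, was at 360 ± 147 CPM in WT and 152 ± 32.4 in WT/flox (-1.24, SE 0.27, edgeR adjusted p = 0.124). Gadd45a, a stress gene induced by denervation, was at 52.4 ± 10.8 and 31.5 ± 0.998 CPM (-0.73, SE 0.16, edgeR adjusted p = 0.120), and the coregulator Cited2 had -0.68; DESeq2 called these 3. Values also moved when 1 WT library was left. Gadd45a was -0.93 without 73A5 and -0.51 without 73A7, and Pdk4 was -0.75 and -1.61.

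The glucocorticoid and Klf15 list had 0 of 23 tested genes called and 1 lower by DESeq2. At an unadjusted p under 0.05, 2 were higher and 6 lower, beside 9.69% of all genes in either direction. Its median was -0.34, with 7 of 23 above 0; some of its genes also stand in the FoxO target list. Glul, which makes glutamine, was at 601 ± 81.2 CPM in WT and 339 ± 40.6 in WT/flox (-0.83, SE 0.17, edgeR adjusted p = 0.0971). The alanine transaminase Gpt (-0.53) and the branched-chain transaminase Bcat2 (-0.49), a Klf15 target, lay in the same direction without passing. DESeq2 called Glul with all libraries. Glul was -0.96 without 73A5 and -0.68 without 73A7, each with 1 WT library left.

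**Figure D5:**
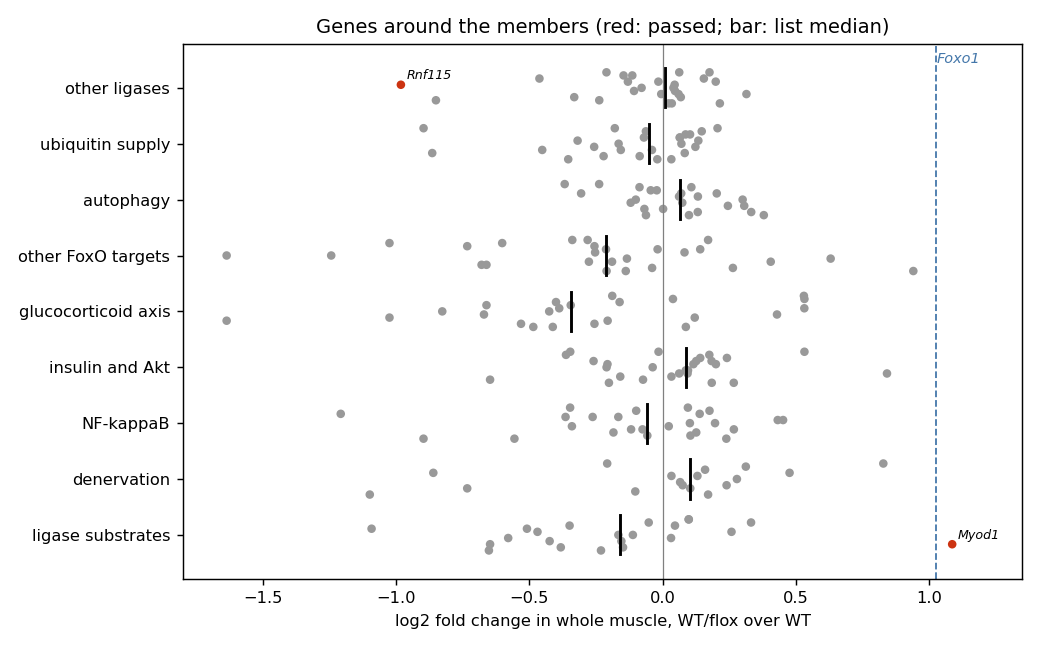
Log2 fold changes in whole muscle of the genes tested in 9 lists around the members, with each list's median as a bar, called genes in red and Foxo1 as a dashed line at 1.03. Rnf115 at -0.98 and Myod1 at 1.09 are the called genes, and the lowest median, -0.34, is that of the glucocorticoid list.

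Upstream, 0 of 27 insulin and Akt genes were called by edgeR or DESeq2, with 2 higher and 3 lower at an unadjusted p under 0.05 (median 0.09). The insulin receptor substrate Irs1, which Fbxo40 targets, was read at 112 ± 0.0696 and 71.7 ± 14.3 CPM (-0.65, SE 0.18, edgeR adjusted p = 0.259) and the regulatory subunit Pik3r1 had 0.53. Around Traf6, 0 of 25 NF-kappaB genes were called (1 higher and 3 lower at an unadjusted p under 0.05, 1 lower by DESeq2, median -0.06). The TWEAK receptor Tnfrsf12a (-1.21, edgeR adjusted p = 0.244) and its ligand Tnfsf12 (-0.56) were lower in value and Stat3 (0.45) higher. Tnfrsf12a passed with DESeq2 (adjusted p = 0.0182), and its value depended on the WT library. It was -1.70 without 73A5 and -0.45 without 73A7, each with 1 WT library left. Of 17 tested denervation genes 0 were called (1 higher and 3 lower at an unadjusted p under 0.05, 1 lower by DESeq2, median 0.10). Myog, the myogenic factor that drives Fbxo32 and Trim63 after denervation, was at 9.46 ± 2.29 and 5.21 ± 0.615 CPM (-0.86, SE 0.22, edgeR adjusted p = 0.181). Neonatal myosin Myh8 had -1.10. With 1 WT library left, Myog was -1.09 and Myh8 -1.39 without 73A5, and they were -0.59 and -0.74 without 73A7.

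Among 22 tested genes whose proteins are reported substrates of these ligases, 1 was higher and 0 lower, with a median of -0.16; DESeq2 called 3, 1 of them higher. Myod1, a myogenic factor that Fbxo32 marks for degradation, had 31.9 ± 1.49 CPM in WT and rose to 67.7 ± 4.05 in WT/flox, a log2 fold change of 1.09 (SE 0.14, edgeR adjusted p = 0.0177). The call was lost without 71B3, 71B4 or 71B5 at log2 fold changes of 1.06 to 1.14. The Z-disc protein gene Actn2 (-1.09, edgeR adjusted p = 0.0578) and Myh4 (-0.65, edgeR adjusted p = 0.299) did not pass. DESeq2 called both lower, and edgeR called Actn2 without a filter on low counts and with the length trend removed. Actn2 was -1.30 without 73A5 and -0.85 without 73A7, each with 1 WT library left.

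The genes most like Foxo1 over the 5 muscle libraries, by the root mean square difference of centred log2 CPM among 8031 genes, were the Wnt receptor Fzd1 (0.0573), the endoplasmic reticulum shaping gene Reep1 (0.0646), the BMP receptor Acvr1 (0.0752) and the integrin Itgb5 (0.0876), beside a median difference of 0.527 over those genes. The mean level of Reep1 was 123 CPM in WT muscle and 253 in WT/flox muscle, and that of Acvr1 20.9 and 41.2. The nearest genes of Fbxo32 were Fem1b (0.0189), Irf2bpl, Zcchc6 and Gpkow, those of Trim63 were Usp20 (0.0149), Zc3h18, Dync1h1 and Abhd10, and those of Klf15 were Cdk19 (0.0249), Syne1, Nnt and Usp48. These likenesses were picked from the same 5 libraries and were not tested.

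In sorted progenitors, the cells in which Hic1 drives the Cre, 0 of 8 tested members were called by edgeR or limma voom, 1 by DESeq2, and 1 stood at an unadjusted p under 0.05, beside 12.5% of all 12392 genes tested there. Over all those genes edgeR called 3.66%, 2.34% higher and 1.32% lower. Trim63 had 0, 0 and 5 counts in WT and 0, 1 and 2 in WT/flox, and Fbxo40 had 0, 1 and 2 and then 0, 0 and 1, so neither was tested. Both genes belong to muscle fibres, whose markers took 0.00234 to 0.0139% of WT and 0.00225 to 0.00292% of WT/flox sorts.

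Fbxo32 was the member with the lowest fold change in progenitors. It was read at 32.8 CPM in 72B8, 15.95 in 74A2 and 15.94 in 73C3, against 9.54 in 74A1, 12.0 in 72B7 and 11.9 in 74A3. All WT/flox libraries lay below all WT libraries, as for 8.17% of all genes. The log2 fold change was -0.95 (SE 0.29, edgeR adjusted p = 0.135; DESeq2 adjusted p = 0.0409), and without 72B8 it was -0.52 (edgeR adjusted p = 0.406). Fibre RNA scaled by those markers would bring 0.0298 to 0.185 CPM of Fbxo32 to a sort, at most 1.16% of the level measured. Of 9 fibre markers tested in the sorts 0 were called. At an unadjusted p under 0.05, 8 were lower in WT/flox, beside 12.5% of all genes in either direction. The share of fibre markers was 0.00234% in 72B8, the library highest in Fbxo32. The part of fibre RNA in the Fbxo32 difference was not tested.

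Foxo1 did not overlap in progenitors either, in the direction seen in muscle. Its values were 110.1, 113 and 118 CPM in WT and 145, 123 and 155 CPM in WT/flox (0.31, SE 0.15, edgeR adjusted p = 0.482), where 8.73% of all genes were higher without overlap. Without 74A3 the log2 fold change was 0.24. Whether its response differs between muscle and progenitors was not tested, and the day changes with the material. In the main fit Foxo3 (-0.31), Foxo4 (-0.27), Fbxo30 (-0.25), Traf6 (-0.02), Trim32 (0.06) and Klf15 (0.28) lay within 2 SE of 0. Klf15 varied most, from 12.4 to 33.0 CPM within WT and from 12.6 to 34.0 CPM within WT/flox, the lowest WT/flox value being 74A3, the library of day 56.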

How the data were processed

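The deposited values are raw counts per gene symbol, made by the authors in 1 table for lysates and 1 for sorted cells. Per the submitters' processing notes, bcl2fastq 2.20, Bowtie, STAR and the build mm10 were used; the kit was stranded, but which counter was run and with which strandedness is not given in the sources used here, so overlapping genes on opposite strands cannot be told apart. The authors' sample table calls the lysates FAPs; the labels were followed.

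Each material was fitted alone with edgeR 4.0.16 in R 4.3.3 (filterByExpr, TMM, robust quasi-likelihood F test, two-sided, Benjamini-Hochberg over all genes tested, threshold 0.05). CPM are TMM-scaled, and SE is implied by the F statistic. Exon lengths and coordinates are from GENCODE M21 (GRCm38), with a length for 23334 of 24421 symbols. Likeness used log2(CPM + 0.5) of genes whose mean log2 is at least 3. In simulated counts over 12654 muscle genes, 68% of 2-fold and 98% of 4-fold changes were recovered, with 14 false calls. Over 12392 progenitor genes these were 65% and 98%, with 5. Changes were planted in 100 genes of each size, all above a minimum mean count, with the spread taken from these data. The rates do not cover genes of low count.

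Members and lists were chosen with earlier results of these data known. The text names all members, up to 4 called and 3 further genes per list by p, the 2 most abundant of each marker list and the 4 nearest genes of 4 members. Alternatives were DESeq2 1.42.0, limma voom 3.58.1, total count and upper quartile scaling, no filter, at least 1 CPM in 2 libraries, each library left out, and, chosen after seeing the data, removal of the length trend and, in progenitors, the identifier prefix as a block. Some genes that this rule selects are not reported here.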

Additional observations from a re-analysis of the deposited data

How the results depend on the processing

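The number of genes called in muscle was 263 with DESeq2 (157 higher and 106 lower, beside 65 and 27 with edgeR), 54 with total count scaling and 139 without a filter on low counts, and leaving out a library gave 0 (without 71B5) to 239 (without 73A5). Fits with 1 WT library left take the spread from WT/flox alone, so the members they call are not counted here. Among fits that keep both WT libraries, the number of members called in muscle was 0 without 71B4 or 71B5 and 1 without 71B3. It was 1 in all 7 other fits that keep every library. In progenitors DESeq2 called 749 genes and 1 member (Fbxo32), and leaving out a library gave 262 (without 74A3) to 483 genes and 0 members. Leaving out a library moved the muscle values of Fbxo30 from -0.0652 (without 73A7) to 0.677 (without 73A5), Fbxo40 from -0.536 to 1.51 and Foxo3 from -0.157 to 1.75 over the same libraries, and turned Fbxo40 to -0.0415 without 71B5; Trim63 turned positive with total count scaling (0.0322). In progenitors it moved Trim32 from -0.0115 (without 72B8) to 0.0908 (without 72B7), with -0.00244 without 74A1 and -0.00024 under total count scaling. Traf6 moved from -0.125 (without 74A3) to 0.0590 (without 74A1), with 0.00989 without 72B8, Klf15 from -0.00317 (without 72B8) to 0.708 (without 74A2), and Foxo3 from -0.548 (without 73C3) to 0.0967 (without 74A2). None of the values with a sign opposite to that of the main fit passed. The cause of these changes was not tested. The labels give no replicate numbers. The authors' sample table does, but they were not used for pairing. Among the progenitors the identifier prefixes 72B and 74A occur in both genotypes, though the labels do not say what they mark. With the prefix as a replicate block, chosen after seeing the data, edgeR called 566 genes and 0 members (Fbxo32 -0.96, adjusted p = 0.0607). In that fit Foxo3 was -0.58 (SE 0.17, edgeR adjusted p = 0.105), beside -0.31 (SE 0.28) in the main fit. The prefix could not serve as a block in muscle because prefix and genotype coincide. With 2 WT muscles a fit that leaves 1 out takes the spread from WT/flox alone. Depth limits Foxo3, with 41 counts in 73A7, and Trim63 and Fbxo40 in progenitors.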
